A study of Mus musculus with 2 samples.

Results

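The antibody secretion and ER chaperone genes described here are 10 mouse genes, chosen by name from the gene list: Jchain, Mzb1, Xbp1, Derl3, Hspa5, Hsp90b1, Creld2, Pdia4, Pdia6 and Slpi. The choice was made with earlier results of these data known. All 10 genes were found among the 27998 genes counted in each library. They were measured in single CD45.1+ immune cells that flow cytometry sorted out of pancreatic islets, from NOD/ShiLtJ females. This inbred strain is prone to autoimmune diabetes without any treatment, and CD45.1 is its form of the leukocyte protein CD45. One droplet library was made at 12 weeks of age and one at 7 weeks, with no treatment or engineered allele named in the labels at either age. The number of mice behind each library is not stated in the labels. With 1 library at each age there is no replicate and no test, and every 95% interval below covers counting error only.

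Antibody-secreting cells arise from B cells and turn much of their protein synthesis over to immunoglobulin. The chains enter the endoplasmic reticulum (ER), where chaperones and disulfide isomerases fold them and from which failed molecules are exported for degradation. The transcription factor XBP1, activated through the unfolded protein response, drives many genes of this machinery. Plasmacytoid dendritic cells (pDC), which release type I interferon, are also a secretory cell type. B cells are part of the immune infiltrate of NOD islets and are known there as antigen-presenting cells as well as precursors of antibody-secreting cells.

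The 12 week library held 2812 cell barcodes and 19288252 unique molecular identifiers (UMIs, each counting 1 captured transcript), and the 7 week library 1113 barcodes and 8701184 UMIs. After filtering, 2771 cells remained at 12 weeks and 1099 at 7 weeks, with a median of 4944 and 5636 UMIs per cell. Only 2 barcode sequences were shared by the libraries, and neither belonged to a secreting cell. Ptprc, which encodes CD45, had a UMI in 91.2% of the 12 week cells and 92.7% of the 7 week cells. Cells were classed by UMIs of single genes. Secreting cells had at least 5 Jchain and at least 5 Mzb1 UMIs (32 cells at 12 weeks, 7 at 7 weeks). B cells had at least 2 Cd79a UMIs and at most 4 of Jchain (606 and 152). The pDC had at least 3 Siglech UMIs (51 and 30). T cells had a Cd3e UMI, and were called cycling when Mki67, Top2a, Birc5, Cdk1 and Rrm2 summed to at least 2 UMIs (215 and 110) and other T cells when they did not (1382 and 623). A further 52 cells at 12 weeks and 22 at 7 weeks held Cd79a with Cd3e and entered no class. Levels are UMIs of the summed cells of a class per 1000000 UMIs of the genes analysed (CPM). Immunoglobulin constant genes are not analysed here, so CPM in secreting cells is a share of the other transcripts. The kit counts 3' ends, so levels are not divided by length and are compared between cells, not between genes.

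The labels of the classes were set against marker genes. All 8 B cell markers had UMIs in secreting cells and in B cells, with a summed level of 2174 CPM in secreting cells against 7558 CPM in B cells at 12 weeks, and 1204 against 6684 CPM at 7 weeks. The pDC held all 11 of their markers, at 17703 CPM at 12 weeks and at 11847 CPM at 7 weeks. Genes of T cells were present in the pDC at 368 CPM at 12 weeks and at 1295 CPM at 7 weeks, and 5 of 51 and 9 of 30 pDC had a Cd3e UMI. In secreting cells the T cell markers summed to 284 CPM at 12 weeks and 1182 CPM at 7 weeks, where 1 cell held 15 of the 22 Cd3e UMIs. Transcripts of 13 pancreatic acinar genes were higher at 12 weeks in every class, for example 259 against 88.5 CPM in B cells. In other T cells they reached 580 CPM at 12 weeks, where 1 barcode carried 6404 such UMIs per 10000, against 26.6 CPM at 7 weeks. The part of these transcripts in the results below was not tested, except where values without the cells concerned are given.

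The regions before the start sites of the ER genes are shown because these genes were higher together in secreting cells and because a known regulatory sequence recurs in them. The ER stress response element, bound by ATF6 with the factor NF-Y, and also by XBP1, reads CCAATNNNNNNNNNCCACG, that is CCAAT and CCACG with 9 free bases between them. It was searched on both strands of the 250 bases before the start in the RefSeq promoter table (GRCm38.p6), where 9 of the 10 members were looked up and Mzb1 was not. It was found in 5 of the 9, Derl3, Hspa5, Hsp90b1, Creld2 and Pdia6, and in 37 of all 32851 promoter entries (0.113%), which include these 5. The parts CCAAT and CCACG, which the element contains, were common when counted alone, in 33.8% and 28.3% of entries. The shorter element ATTGGNCCACG, in 0.0304% of entries, was in none of the 9. In the sequences below, which run 5′ to 3′ on the gene's strand and end at the base before the start, the fixed bases of the element are in capitals.
Hspa5: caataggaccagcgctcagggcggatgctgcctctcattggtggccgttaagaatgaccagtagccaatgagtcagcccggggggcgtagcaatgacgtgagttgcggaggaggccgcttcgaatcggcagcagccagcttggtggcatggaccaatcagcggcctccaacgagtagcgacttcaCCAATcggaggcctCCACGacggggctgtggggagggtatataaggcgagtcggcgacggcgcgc
Hsp90b1: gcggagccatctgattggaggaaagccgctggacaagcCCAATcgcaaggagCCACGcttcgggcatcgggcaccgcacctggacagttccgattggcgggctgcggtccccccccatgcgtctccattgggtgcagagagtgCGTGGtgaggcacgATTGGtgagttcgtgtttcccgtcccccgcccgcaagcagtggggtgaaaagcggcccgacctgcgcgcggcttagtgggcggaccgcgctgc
Derl3: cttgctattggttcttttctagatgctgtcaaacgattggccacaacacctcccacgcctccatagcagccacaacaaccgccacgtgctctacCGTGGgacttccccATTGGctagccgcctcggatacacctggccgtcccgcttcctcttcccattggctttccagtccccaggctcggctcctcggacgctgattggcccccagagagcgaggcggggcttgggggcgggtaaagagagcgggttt
Creld2: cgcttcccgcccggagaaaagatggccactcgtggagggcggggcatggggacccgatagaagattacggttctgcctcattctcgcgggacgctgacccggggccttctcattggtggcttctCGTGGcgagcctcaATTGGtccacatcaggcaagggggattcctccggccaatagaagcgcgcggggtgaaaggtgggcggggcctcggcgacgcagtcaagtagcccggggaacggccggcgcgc
Pdia6: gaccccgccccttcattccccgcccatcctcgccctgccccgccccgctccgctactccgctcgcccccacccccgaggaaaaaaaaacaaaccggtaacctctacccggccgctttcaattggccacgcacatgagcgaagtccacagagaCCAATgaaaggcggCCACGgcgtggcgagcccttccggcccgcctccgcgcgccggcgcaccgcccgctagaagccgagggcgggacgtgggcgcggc
Jchain: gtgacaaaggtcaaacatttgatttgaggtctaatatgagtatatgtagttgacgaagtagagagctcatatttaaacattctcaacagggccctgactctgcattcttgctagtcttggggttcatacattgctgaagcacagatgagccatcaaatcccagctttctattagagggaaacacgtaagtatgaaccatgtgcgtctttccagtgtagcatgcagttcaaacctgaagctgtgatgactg
The windows are chr2:34771840-34772089 (plus strand), chr10:86705445-86705694 (minus), chr10:75893148-75893397 (plus), chr15:88819396-88819645 (plus), chr12:17266339-17266588 (plus) and chr5:88527898-88528147 (minus). Hsp90b1 held the element at 2 places, once on each strand, and Hspa5 held it nearest to the start, at bases 65 to 47 before it. Derl3 and Creld2 held it on the opposite strand, as CGTGG and ATTGG. The window of Jchain is shown for contrast. Neither CCAAT nor CCACG was found on either strand there or in that of Xbp1, the window of Pdia4 held 3 CCAAT boxes with no CCACG, and that of Slpi held 1 CCACG with no CCAAT. A match is a description of these letters, and binding was not measured. The RefSeq start can differ from the gene coordinates given below, which are from GENCODE on the same build.

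Cells that met the secreting rule were few at both ages. They made up 4.63% of B-lineage cells at 12 weeks (32 of 691, a number that includes the cells with both Cd79a and Cd3e and 1 cell with 13 Jchain but 4 Mzb1 UMIs, exact binomial interval 3.19 to 6.47) and 3.87% at 7 weeks (7 of 181, 1.57 to 7.81). The difference of 0.764 points had a counting interval of -3.36 to 3.46 (Newcombe), which treats cells as independent and says nothing of the spread between mice or libraries. As a share of all cells kept, they were 1.15% at 12 weeks and 0.637% at 7 weeks, a difference of 0.518 points with an interval of -0.233 to 1.09. Of the 32 and 7 cells, 11 and 2 held under 100 Jchain UMIs and no UMI of the plasma cell gene Sdc1. The B cell gene Ms4a1 had at least 5 UMIs in 9 and 2 of those. The shares thus include cells with B cell markers, as described below. All secreting cells together gave 3.1% of all UMIs of the 12 week library and 2.12% of those of the 7 week library. The same cells held 97.7% of all Jchain UMIs at 12 weeks and 96.3% at 7 weeks, and of Mzb1, an ER protein that works with the chaperone encoded by Hsp90b1, 69.4% and 68.5%. These 2 shares follow in part from the rule, which chose the cells by both genes. Of the members outside the rule, Derl3, part of the channel that returns failed proteins to the cytosol, had 89.8% and 82.4% of its UMIs there. At the other end stood Hspa5, the ER chaperone BiP that every cell uses, with 12.2% at 12 weeks and 7.01% at 7 weeks.

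**Figure D1:**
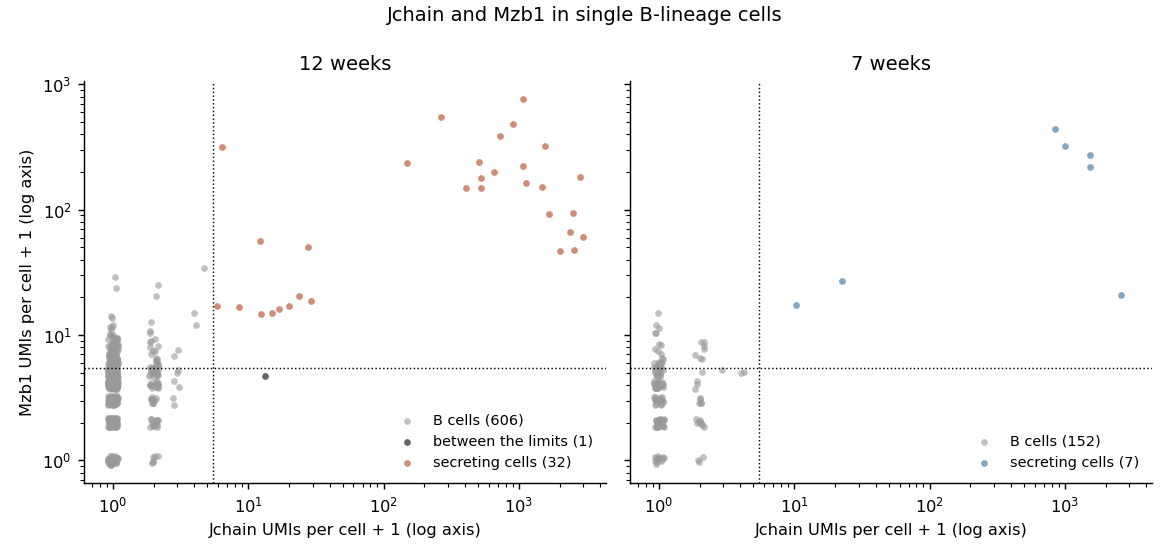
Jchain UMIs per cell plus 1 (horizontal, log axis) against Mzb1 UMIs per cell plus 1 (vertical, log axis) in single B-lineage cells at 12 weeks (left) and 7 weeks (right), with points spread slightly sideways and up so that equal counts can be seen. Dotted lines mark the limits of 5 UMIs that define secreting cells. Between 28 and 144 Jchain UMIs at 12 weeks, and between 23 and 814 at 7 weeks, there was no cell.

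Jchain separated the secreting cells into 2 sets with a wide gap. At 12 weeks 21 cells held 144 to 2980 Jchain UMIs and 11 cells held 5 to 28. At 7 weeks 5 cells held 814 to 2537 and 2 cells held 9 and 23. The cell with 2537 also held 15 Cd3e UMIs, only 21 of Mzb1, and 34.2% of the Jchain UMIs of the 7 week secreting cells. Below the limit the B-lineage cells tailed off, with 2 cells at 3 Jchain UMIs, 1 at 4 and 2 at 5 in the 12 week library, and 3 at 3 and none at 4 or 5 in the 7 week library. A limit of 100 UMIs, chosen after this gap was seen, is used below to describe the 2 sets.

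The sets also differed, to unlike degrees, in genes that the limit did not use. Sdc1, the plasma cell surface proteoglycan CD138, had UMIs in all 21 and all 5 cells above 100 Jchain UMIs, and in none of the 11 and 2 cells below. Ms4a1, the B cell surface protein CD20, had at least 5 UMIs in 1 of 21 and 0 of 5 cells above the limit, against 9 of 11 and 2 of 2 below. Xbp1 stood at 2540 CPM above and 175 CPM below at 12 weeks, and at 2742 against 101 CPM at 7 weeks. Pdia4, a disulfide isomerase, stood at 1933 against 292 CPM and 1189 against 33.8 CPM. Other genes differed less at 12 weeks, with Hspa5 at 2226 against 1738 CPM, Pdia6 at 1524 against 852 and Cd79a at 623 against 813. At 7 weeks these stood at 1773 against 304, 1706 against 203 and 179 against 912 CPM. Prdm1, a plasma cell transcription factor, had a UMI in 11 of 21 and 3 of 5 cells above the limit. Below it, 1 of 11 and 1 of 2 cells had one. The cells above the limit had a median of 12003 UMIs at 12 weeks, against 20519 below it, and 30694 at 7 weeks, against 14809 below it. Those below were deeper than B cells, whose medians were 4597 and 4975, so that 5 Jchain UMIs are a smaller share of their transcripts. At 12 weeks the 5 cycling genes summed to at least 2 UMIs, the limit used for T cells, in 9 of the 11 cells and 9 of the 21. They summed to at least 10 in 5 of the 11 and 3 of the 21. Of all secreting cells, 18 of 32 at 12 weeks and 4 of 7 at 7 weeks reached the limit of 2. Among B cells 15 of 606 and 5 of 152 did. Secreting cells were deeper, with medians of 13340 and 20312 UMIs. The part of cycling in the ratios of secreting over B cells below was not tested.

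A few 12 week cells did not follow this division, 1 of them in most members. That cell held 5 Jchain UMIs, the lowest number the rule admits, with 321 of Mzb1, 26 of Xbp1, 24 of Derl3 and 292 of Slpi among its 48578 UMIs. It also carried 337 Hspa5, 369 Hsp90b1 and 131 Pdia6 UMIs, the highest count of each in any secreting cell of either library, and 3 of Prdm1, the plasma cell transcription factor, but none of Sdc1. This cell alone gave 28.5% of the Hspa5 UMIs of the 12 week secreting cells. A second cell below the limit, with 11 Jchain UMIs, had 2 of Ms4a1, 42 of Hspa5 and 68 of Hsp90b1, and another, with 25 Jchain UMIs, had 10 of Ms4a1, 65 of Hsp90b1 and 35 of Pdia6. Without the cell of 321 Mzb1 UMIs, the other 10 cells below 100 Jchain UMIs stood at 91.1 CPM of Xbp1, 81.5 of Pdia4 and 527 of Hspa5, beside B cell levels of 78.3, 69.9 and 474 CPM. Summed over these 10, the other members outside the rule were further above B cells. Hsp90b1 was at 748 against 271 CPM, Pdia6 at 422 against 175 CPM and Creld2 at 62.3 against 31.8 CPM. Derl3 was at 33.6 against 3.43 CPM and Slpi at 67.1 against 29.9 CPM. Those sums include the 2 cells with 68 and 65 Hsp90b1 UMIs. The median of the 10 cells was 2.5 UMIs of Hsp90b1, 2.0 of Pdia6, 0.5 of Slpi and 0 of Creld2 and of Derl3.

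**Figure D2:**
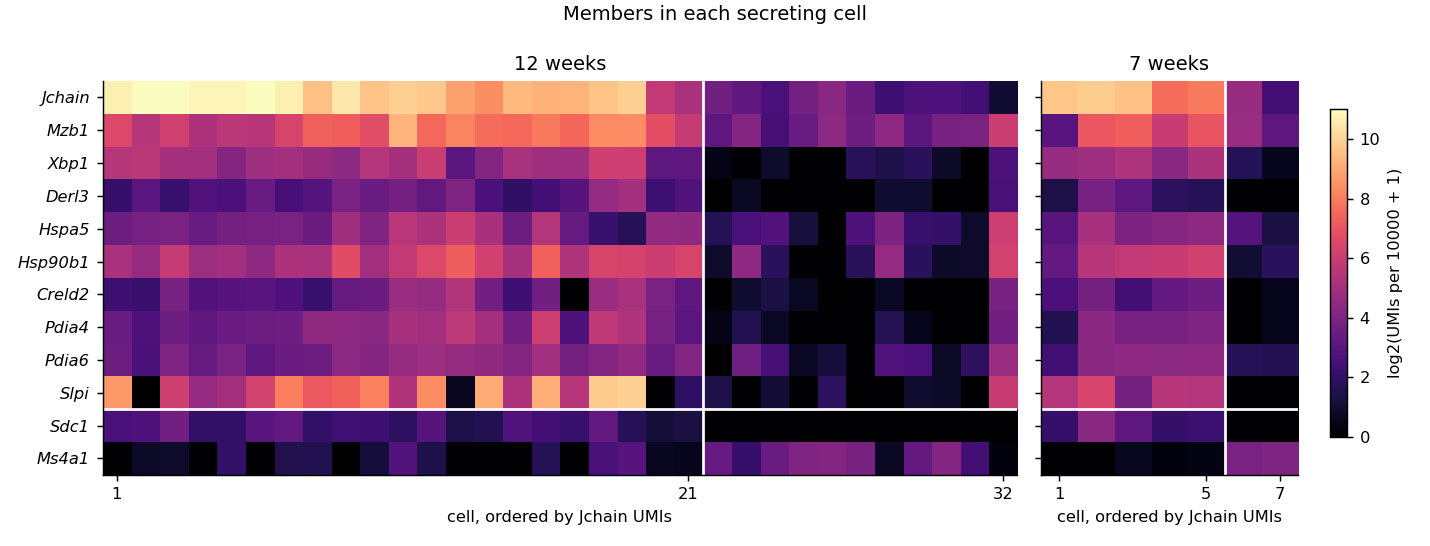
Each column is 1 secreting cell, ordered by its Jchain UMIs, at 12 weeks (left, 32 cells) and 7 weeks (right, 7 cells). Rows are the 10 members, then Sdc1 and Ms4a1 under the horizontal line, and colour is log2(UMIs per 10000 + 1). The vertical line separates cells with at least 100 Jchain UMIs, which hold Sdc1 and the ER genes, from the 11 and 2 cells under it, most of which hold Ms4a1. Cell 32 at 12 weeks holds the ER genes without Sdc1, and cells 23 and 28 hold Hsp90b1 below the limit.

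All 8 members that did not define the cells were more than 2-fold higher in secreting than in B cells of the same library, 8 of 8 at 12 weeks, where 13.2% of all genes with 50 UMIs reached 2-fold, and 8 of 8 at 7 weeks, where 18.5% did. The members were chosen with earlier results of these data known, so these counts are a description and no test. Jchain and Mzb1 chose the cells, and their levels are a description only. Jchain, which joins the units of IgM and dimeric IgA (chromosome 5, 88519809 to 88527891), stood at 47894 CPM in secreting cells at 12 weeks and 41204 CPM at 7 weeks, with single cells between 5 and 2980 and between 9 and 2537 UMIs. Mzb1 stood at 9063 and 7180 CPM. In B cells Mzb1 was already present, at 623 CPM at 12 weeks and at 503 CPM at 7 weeks, in 91.4% and 90.1% of cells, against 4.63% and 4.82% of other T cells (thinned 74.6% and 69.1%, against 2.68% and 1.28%). Jchain, in contrast, had a UMI in 8.75% and 7.89% of B cells thinned to 2500 UMIs (16.0% and 19.7% unthinned), beside 8.76% and 8.99% of thinned other T cells (17.8% and 20.5% unthinned). Median depth was 4597 and 4975 UMIs in B cells and 4747 and 5389 in other T cells, and the B cell share is read as background.

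Among the regulators and quality-control genes the steepest was Derl3 (chromosome 10, 75893413 to 75895941). It had 463 CPM in secreting cells against 3.43 CPM in B cells at 12 weeks, a ratio of 135 (74.2 to 273), and 338 against 4.66 CPM at 7 weeks, a ratio of 72.7 (27.0 to 275). The B cell values rest on 11 and 4 UMIs. Xbp1 (chromosome 11, 5520659 to 5525893) had 1506 against 78.3 CPM at 12 weeks, a ratio of 19.2 (16.7 to 22.2), and 2308 against 67.5 CPM at 7 weeks, a ratio of 34.2 (25.9 to 45.8). These counts do not tell the spliced, active form of Xbp1 from the unspliced one.

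Among the chaperones the ratio was highest for Creld2 and lowest for Hspa5. Hsp90b1 (chromosome 10, 86690209 to 86705509) encodes the ER member of the HSP90 family, which folds integrins and Toll-like receptors. It stood at 4462 against 271 CPM at 12 weeks and 4245 against 257 CPM at 7 weeks, a ratio of 16.5 at both ages (15.2 to 17.8 and 14.2 to 19.2). Hspa5 (chromosome 2, 34771970 to 34777547), which holds free heavy chains in the ER, stood at 2013 against 474 CPM and at 1531 against 411 CPM. Its ratios of 4.24 (3.93 to 4.58) and 3.73 (3.17 to 4.37) were the lowest of the 8 at either age. Creld2 (chromosome 15, 88819646 to 88826683), an ER stress-induced protein of the ER, stood at 803 against 31.8 CPM, a ratio of 25.2 (20.3 to 31.6), and at 705 against 21.0 CPM, a ratio of 33.6 (20.4 to 58.5).

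Of the disulfide isomerases Pdia4 (chromosome 6, 47796141 to 47813430) and Pdia6 (chromosome 12, 17266545 to 17284770), Pdia4 had the higher ratio at both ages, with overlapping intervals at 7 weeks. Pdia4 stood at 1215 against 69.9 CPM at 12 weeks, a ratio of 17.4 (14.9 to 20.3), and 999 against 53.6 CPM at 7 weeks, a ratio of 18.6 (13.4 to 26.4). Pdia6 stood at 1230 against 175 CPM, a ratio of 7.02 (6.28 to 7.85), and at 1459 against 111 CPM, a ratio of 13.2 (10.4 to 16.9). Slpi (chromosome 2, 164354070 to 164389095), a secreted inhibitor of serine proteases, is the member outside the ER machinery. It stood at 9481 against 29.9 CPM at 12 weeks, a ratio of 317 (259 to 392), and 3657 against 33.8 CPM at 7 weeks, a ratio of 108 (74.7 to 163). Thinned B cells held a Slpi UMI in 4.29% and 2.63% of cells, beside 4.34% and 2.25% of other T cells (unthinned 8.09% and 7.24%, beside 9.04% and 5.3%). The share of B cells with Slpi was thus near that of other T cells, and the source of these UMIs was not tested. The level was not spread evenly over the B cells, since 7 of the 606 at 12 weeks held 53.1% of it. Of the 29 Slpi UMIs in 7 week B cells, 58.6% came from 1 cell.

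**Figure D3:**
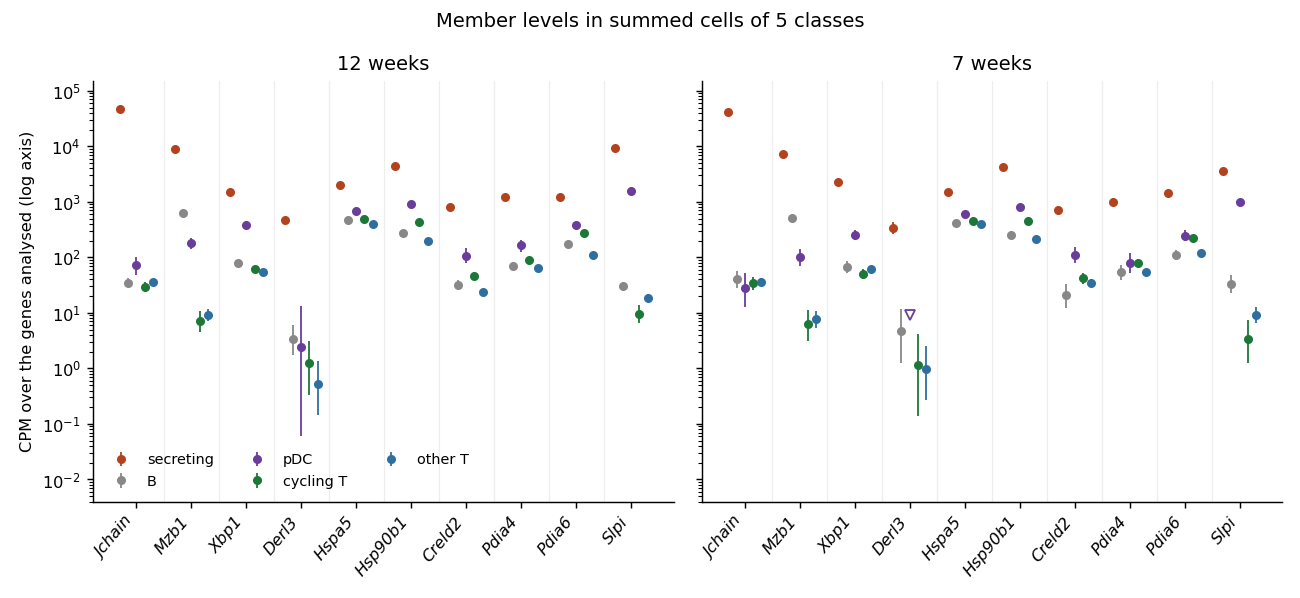
CPM (log axis) of the 10 members in the summed cells of the 5 classes at 12 weeks (left) and 7 weeks (right), with exact Poisson 95% intervals, many narrower than the points. The open triangle marks what 3 counts would give for Derl3 in 7 week pDC, where no UMI was counted. Secreting cells are highest for every member at both ages, and pDC come second for every member but Jchain at 7 weeks, Mzb1 and Derl3.

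Other genes of the secretory pathway were higher in secreting cells as well, in lists chosen with earlier results of these data known. Of the plasma cell regulators and surface genes, 11 of 13 with enough UMIs were at least 2-fold higher in secreting than in B cells at 12 weeks and 7 of 9 at 7 weeks. The median log2 ratio was 3.24 and 3.34, beside 0.03 and 0.04 over all genes. Txndc5, an ER thiol oxidoreductase, stood at 1431 against 114 CPM at 12 weeks and 2691 against 102 CPM at 7 weeks. Eaf2, an elongation factor partner, stood at 373 against 10.6 CPM and 838 against 8.15 CPM. Pou2af1, the B cell coactivator OBF-1, stood at 478 against 133 CPM and 466 against 148 CPM.

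Genes for bringing a chain into the ER, attaching its sugars and folding it were higher as well. Of the translocation genes, 15 of 18 at 12 weeks and 15 of 17 at 7 weeks reached 2-fold (median log2 ratio 2.28 and 2.64), with the translocon subunit gene Sec61b at 1742 against 363 CPM and 2441 against 335 CPM. Ssr4, of the translocon-associated complex, stood at 2016 against 220 CPM and at 1199 against 172 CPM, and Sec61g had ratios of 3.27 and 4.19. For N-glycosylation the count was 9 of 11 and 8 of 9 (2.07 and 2.64), and the oligosaccharyltransferase gene Ddost stood at 628 against 74.2 CPM and 749 against 51.2 CPM. Its partner subunit genes Krtcap2 and Dad1 had ratios of 5.09 and 3.2 at 12 weeks and 5.99 and 4.53 at 7 weeks. Of other folding genes, 15 of 17 and 13 of 13 reached 2-fold (1.94 and 2.39), among them Manf, a secreted ER stress protein, at 1744 against 254 CPM and 1764 against 206 CPM, and the lectin chaperone gene Calr at 1540 against 506 CPM and 1814 against 410 CPM. Ppib, a prolyl isomerase of the ER, had ratios of 3.69 and 5.24.

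Genes for both ways out of the ER were higher too. ER-associated degradation reached 2-fold in 12 of 13 and 10 of 10 genes (2.11 and 1.98), with Edem1, which delivers misfolded glycoproteins, at 573 against 26.2 CPM and 1665 against 34.9 CPM. Herpud1 had ratios of 6.14 and 6.78 and Selk of 3.72 and 4.11. ER to Golgi traffic did so in 12 of 14 and 10 of 10 genes (1.57 and 2.59), with Lman1, a cargo receptor, at 463 against 19.6 CPM and 488 against 16.3 CPM. The cargo carrier genes Tmed10 and Tmed2 had ratios of 5.22 and 5.04 at 12 weeks and 6.45 and 5.06 at 7 weeks. Of the sensors of the unfolded protein response and its PERK arm, 2 of 6 and 1 of 3 genes reached 2-fold, with medians of 0.07 and 0.63. The sensor gene Atf6b had ratios of 2.26 and 4.76. Atf4, the transcription factor of that arm, stood at 390 against 259 CPM at 12 weeks and 422 against 272 CPM at 7 weeks. Ppp1r15a, its feedback phosphatase subunit, was lower in secreting cells, at 81.7 against 210 CPM, a ratio of 0.388 (0.284 to 0.521), and at 128 against 259 CPM, a ratio of 0.494 (0.307 to 0.76).

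Across the 5 classes and 2 libraries (10 points), the genes whose log2 CPM followed the mean of the 10 members most closely were Manf (Pearson r 0.981), Sel1l (0.98), Txndc11 (0.977), Tmem214 (0.977) and Tram2 (0.976), among 9022 genes with at least 100 UMIs. The points share libraries, and 2 of them, the secreting cells, lie far above the rest. The members themselves correlated with that mean at 0.885 (Mzb1) to 0.99 (Hspa5). Each of them is part of the mean, so high values follow in part from its construction.

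Within B-lineage cells, a few cells held a larger share of each member's UMIs than of all UMIs. The size of that share differed by member. The 7 cells richest in each gene, 1% of the 639 at 12 weeks, held 60.2% of Jchain, 73.5% of Slpi, 56.1% of Creld2, 49.2% of Hsp90b1 and 30.5% of Hspa5 UMIs. At 7 weeks the richest 2 of 159 cells held 55.1% of Jchain, 53.6% of Slpi, 55.9% of Creld2, 56.3% of Hsp90b1 and 25.8% of Hspa5. The other members lay between 31.2% (Pdia6) and 49.5% (Derl3) at 12 weeks. At 7 weeks they lay between 41.9% (Mzb1) and 55.4% (Derl3). These richest cells held 2.27% to 5.84% of all B-lineage UMIs at 12 weeks and 3.39% to 8.15% at 7 weeks. Among B cells alone, without the secreting cells, the top 1% held 7.66% of Mzb1 at 12 weeks and 5.32% at 7 weeks, and 6.71% and 5.67% of Hspa5.

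Most secreting cells held most members at once. Across the 32 secreting cells at 12 weeks the 45 pairs of members had a median Pearson r of 0.757 (0.338 to 0.925, log2 of UMIs per 10000 plus 1), and across the 7 at 7 weeks 0.836 (0.494 to 0.985). Thinned to 2500 UMIs the medians were 0.642 and 0.723. These pairs include those with Jchain or Mzb1, whose UMIs chose the cells. The cells also join the sets above and below the Jchain gap, 21 with 11 at 12 weeks and 5 with 2 at 7 weeks. An r over both sets cannot tell the difference between the sets from members moving together within a set. Values within the upper set are given below. In B cells the median was 0.0405 at 12 weeks and 0.0315 at 7 weeks, in pDC 0.0365 and 0.0621 (36 pairs at 7 weeks, where Derl3 was at 0), in cycling T cells 0.0193 and 0.0183, and in other T cells 0.0244 and 0.0259. Counts there are sparse, and a weak correlation between sparse counts is no finding. After thinning, at least 6 of the 8 members outside the rule were present in 22 of 32 and 5 of 7 secreting cells. The same held for 4 of 51 and 2 of 30 pDC, 1 of 606 and 0 of 152 B cells, and no cell of either T cell class.

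Among the 21 cells of the 12 week library with at least 100 Jchain UMIs, the members no longer moved as 1 group. Some pairs followed each other, with r of 0.795 between Hsp90b1 and Pdia6, 0.761 between Pdia4 and Pdia6 and 0.777 between Mzb1 and Pdia4. Hspa5 did so less, with r of 0.449 to Hsp90b1, 0.406 to Pdia6, 0.268 to Pdia4, 0.254 to Creld2 and 0.176 to Mzb1. Jchain followed Xbp1 (0.638) but ran against Hsp90b1 (-0.419), and Xbp1 ran against Hspa5 (-0.547). The 2 cells with the most UMIs of this set, 51101 and 41378, both had a cycling sum of 79. They held 286 and 144 Jchain UMIs (56.0 and 34.8 per 10000) and 331 and 345 of Hsp90b1 (64.8 and 83.4 per 10000). The cell with most Jchain, 2980 of its 18463 UMIs (1614 per 10000), had 65 of Hsp90b1 (35.2 per 10000) and a cycling sum of 1. These cells share 1 library, and a UMI-rich Jchain lowers the share of every other gene in its cell. Slpi ranged widely among them, with 1105, 734 and 539 UMIs in its 3 richest cells and 0 in 2 of the 21. In the 5 cells of the 7 week library above the limit, Hspa5 followed the same genes more closely. Its r was 0.759 to Hsp90b1, 0.814 to Pdia6, 0.93 to Pdia4, 0.803 to Creld2 and 0.828 to Mzb1. Xbp1 had r of 0.166 to Hspa5 and 0.29 to Jchain there, and Jchain -0.536 to Hsp90b1. So few cells allow no more than a description.

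In the secreting cells, Slpi was the member that differed most between the ages. It stood at 9481 CPM at 12 weeks, with a median of 39.0 UMIs per cell and a highest of 1105, and at 3657 CPM at 7 weeks, with a median of 130 and a highest of 231, a ratio of 2.59 (2.39 to 2.82). Scaled to depth, the median cell held 34.5 Slpi UMIs per 10000 at 12 weeks and 42.3 at 7 weeks, so it was not higher at 12 weeks. The per-cell ranges overlap and the 12 week sum leans on its richest cells, of which 5 hold 60.4%. Xbp1 ran the other way, at 1506 CPM at 12 weeks against 2308 CPM at 7 weeks, which is a ratio of 0.652 (0.58 to 0.735). The other 8 members lay between 0.843 (Pdia6) and 1.37 (Derl3). Cells with at least 100 Jchain UMIs gave 56.3% of the secreting UMIs at 12 weeks and 83.6% at 7 weeks. Above that limit Xbp1 measured 2540 CPM at 12 weeks and 2742 CPM at 7 weeks, and Slpi 15929 and 4376 CPM. A single 7 week cell gave 28.9% of the secreting UMIs there.

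Over all B-lineage cells, secreting cells included, 1 of 10 members was at least 1.5-fold higher at 12 weeks and 1 was lower by as much, where 9.13% of all genes were higher and 7.83% lower. Slpi had 1490 CPM at 12 weeks against 662 CPM at 7 weeks, which is a ratio of 2.25 (2.08 to 2.44), and stayed above 1.5-fold in each alternative tried. Xbp1 had 299 and 456 CPM, a ratio of 0.656 (0.589 to 0.732). Its log2 ratio of -0.61 became 0.22 as a mean of per-cell CPM, 0.19 without cycling cells and 0.03 without the secreting cells holding over 1 Cd3e UMI, so its direction depended on which cells were counted and how they were weighted. Under the same 3 settings the number of members at least 1.5-fold higher at 12 weeks was 5, 4 and 3, and without the richest cell of each gene it was 2. Jchain was at 7434 and 7181 CPM, which is a ratio of 1.04 (1.01 to 1.06). Secreting cells gave 15.5% of the B-lineage UMIs at 12 weeks and 17.3% at 7 weeks. Of the plasma cell regulators, 1 of 15 was at least 1.5-fold higher at 12 weeks, Ly6c2 at 57.8 against 18.3 CPM, and 8 were lower by as much, beside 7.83% of all genes, among them Sdc1 at 33.1 against 80.8 CPM and Eaf2 at 66.5 against 152 CPM. The median log2 ratio of that list was -0.79, beside 0.07 over all genes. Sdc1 was chosen for mention after its values were seen. At 7 weeks all of its 84 UMIs lay in the 7 secreting cells, 32 of them in 1 cell. Of the 158 Eaf2 UMIs at 7 weeks, 151 lay in those 7 cells. The part of so few cells in the values of this list was not tested. The other 6 lists had medians between -0.16 and 0.05, and in the degradation list Edem1 was lower at 12 weeks, at 111 against 318 CPM. The highest ratios in them were 1.68 for Arfgap3 (0.748 to 4.42), 1.42 for Ssr4 and for Ufd1l, 1.29 for Pdia3, 1.17 for Ddit4 and 1.15 for Magt1.

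In B cells alone most members were within 1.5-fold between the ages. Of the 9 members with at least 50 UMIs, 2 were at least 1.5-fold higher at 12 weeks and none lower, beside 11.2% of all genes. Pdia6 stood at 175 CPM at 12 weeks against 111 CPM at 7 weeks, which is a ratio of 1.58 (1.27 to 1.99), and Creld2 at 31.8 and 21.0 CPM, a ratio of 1.52 (0.914 to 2.66). Without the doublet filter, or with at least 4 Cd79a UMIs asked for, the count was 1, and when cells holding Cd79a with Cd3e were kept, 0. Hspa5 stood at 474 and 411 CPM (1.15, 1.03 to 1.3), Hsp90b1 at 271 and 257 CPM (1.05, 0.908 to 1.23), and Mzb1 at 623 and 503 CPM (1.24, 1.12 to 1.38). Cycling B cells were 15 at 12 weeks and 5 at 7 weeks. Against other B cells, 2 of 9 members were 1.5-fold higher and 3 lower at 12 weeks, beside 26.0% of genes higher and 18.7% lower, and 0 of 5 were higher and 1 lower at 7 weeks, beside 31.6% and 23.9%. The 2 were Jchain, on 13 UMIs, and Slpi, of whose 25 UMIs 1 cell held 48.0%. These counts rest on too few cells to describe further.

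**Figure D4:**
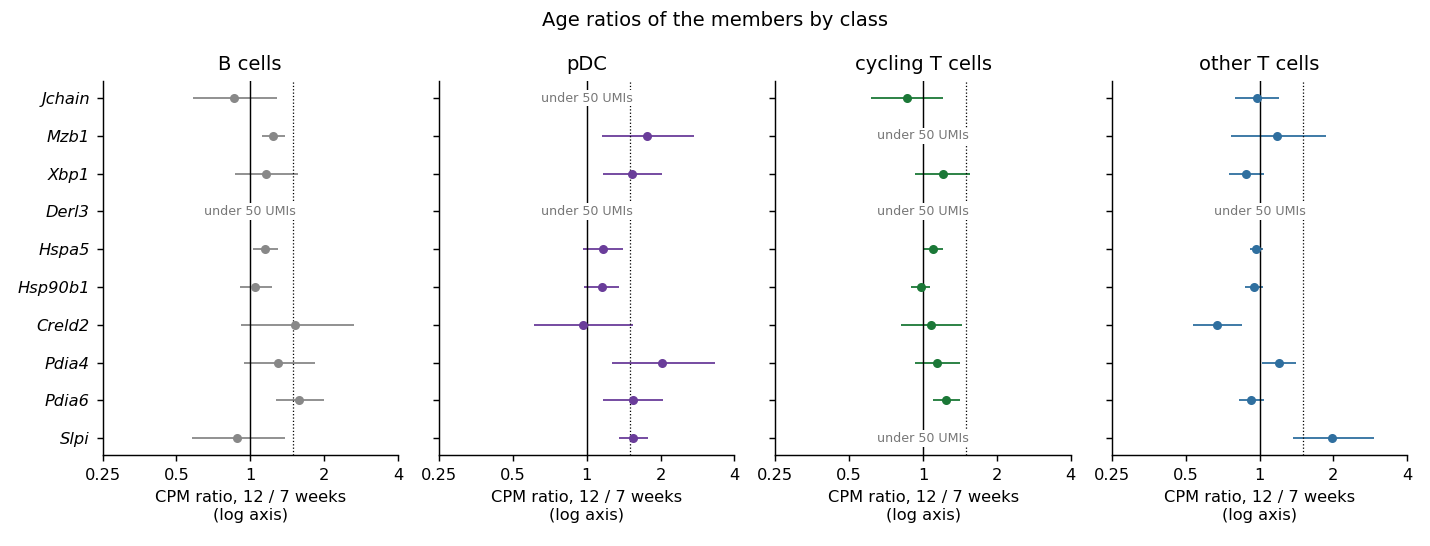
CPM at 12 weeks over CPM at 7 weeks (log axis) of each member in B cells, pDC, cycling T cells and other T cells, with exact 95% counting intervals. The solid line is a ratio of 1 and the dotted line 1.5. Members with fewer than 50 UMIs over both libraries are named as such in place of a point. Points left of 1.5 prevail in B and T cells, while 5 of the 8 pDC points lie right of it.

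The pDC carried the ER genes at intermediate levels and were second to secreting cells in Slpi. Slpi stood at 1542 CPM in pDC against 18.3 CPM in other T cells at 12 weeks, a ratio of 84.3 (70.1 to 102), and at 994 against 9.21 CPM at 7 weeks, a ratio of 108 (76.6 to 156). It was found in 47 of 51 and 25 of 30 pDC (72.5% and 66.7% when thinned, against 4.34% and 2.25% of other T cells), and pDC held 9.76% of the library's Slpi UMIs at 12 weeks and 30.2% at 7 weeks. Mzb1 stood at 180 against 9.14 CPM, a ratio of 19.7, and at 102 against 7.72 CPM, a ratio of 13.3. Xbp1 stood at 390 against 54.1 CPM (7.21, 5.97 to 8.67) and 255 against 61.3 CPM (4.16, 3.2 to 5.36), and Hsp90b1 at 933 against 199 CPM (4.7, 4.19 to 5.26) and 814 against 210 CPM (3.88, 3.36 to 4.46). In all, 8 of 9 members were at least 2-fold higher in pDC than in other T cells at 12 weeks, beside 15.1% of all genes, and 6 of 9 at 7 weeks, beside 10.9%. Hspa5 stayed under 2-fold at both ages, with ratios of 1.76 (1.56 to 1.99) and 1.47 (1.26 to 1.7). Derl3 had 1 UMI in the 12 week pDC and 0 of 322011 in the 7 week pDC, which allows up to 9.32 CPM (3 counts), so no fold is given. Of the 8 B cell markers, 7 had UMIs in the pDC of each library, summing to 74.6 CPM at 12 weeks and 52.8 CPM at 7 weeks, with Pax5 at 0. Of the 8 plasma cell markers, which include Jchain, Mzb1 and Xbp1, 7 had UMIs, summing to 1297 and 823 CPM, with Tnfrsf17 at 0.

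Between the ages, 5 of the 8 pDC members with 50 UMIs were at least 1.5-fold higher at 12 weeks, beside 13.7% of all genes. They were Pdia4 (164 against 80.7 CPM, 2.03, 1.27 to 3.32), Mzb1 (1.76, 1.15 to 2.74), Slpi (1.55, 1.35 to 1.78), Pdia6 (378 against 245 CPM, 1.54, 1.17 to 2.04) and Xbp1 (1.53, 1.17 to 2.02). The summed pDC markers moved alongside, at 17703 against 11847 CPM, as did islet endocrine genes at 238 against 71.4 CPM and acinar genes at 161 against 18.6 CPM. T cell markers were lower at 12 weeks, at 368 against 1295 CPM, and so were the 5 cycling genes, at 19.2 against 252 CPM. One 7 week pDC held 48363 of that class's 322011 UMIs and 23.1% of its Pdia4. The part of these in the age ratios was not tested, other than by the settings that follow. Among pDC with no Cd3e UMI, and among those with at least 6 Siglech UMIs, 1 member remained at 1.5-fold, Pdia4, with log2 ratios of 1.41 and 1.33. The other 4 were then at log2 ratios of 0.30 to 0.51 and of 0.33 to 0.58.

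Cycling T cells carried more of 2 ER chaperones than other T cells did, at both ages. Hsp90b1 stood at 433 CPM in cycling against 199 CPM in other T cells at 12 weeks, a ratio of 2.18 (2.03 to 2.35), and at 443 against 210 CPM at 7 weeks, a ratio of 2.11 (1.91 to 2.33). Pdia6 stood at 273 against 110 CPM, a ratio of 2.49 (2.26 to 2.74), and at 219 against 118 CPM, a ratio of 1.85 (1.62 to 2.12). These 2 genes were also the pair with the highest correlation in both T cell classes, with r of 0.404 at 12 weeks and 0.5 at 7 weeks in cycling and 0.181 and 0.274 in other T cells. Creld2 was higher at 12 weeks, at 45.6 against 23.5 CPM (1.95, 1.55 to 2.44), and 1.21 (0.904 to 1.62) at 7 weeks. Hspa5, at 488 against 394 CPM and 444 against 407 CPM, differed less, with ratios of 1.24 (1.16 to 1.32) and 1.09 (1.0 to 1.19). At the 1.5-fold limit, 3 of 9 members were higher and 1 lower at 12 weeks, beside 19.4% of genes higher and 17.3% lower, and 2 of 7 were higher at 7 weeks, beside 16.1%. The lower one was Slpi, at 9.62 against 18.3 CPM. Cycling cells were deeper, with medians of 12423 and 14183 UMIs against 4747 and 5389 in other T cells. Of the folding list, 8 of 18 genes at 12 weeks and 7 of 16 at 7 weeks reached 1.5-fold (median log2 ratio 0.46 and 0.56, beside 0.04 and 0.02), with Manf at 303 against 173 CPM and 282 against 181 CPM. The degradation genes reached it in 0 of 13 at both ages.

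**Figure D5:**
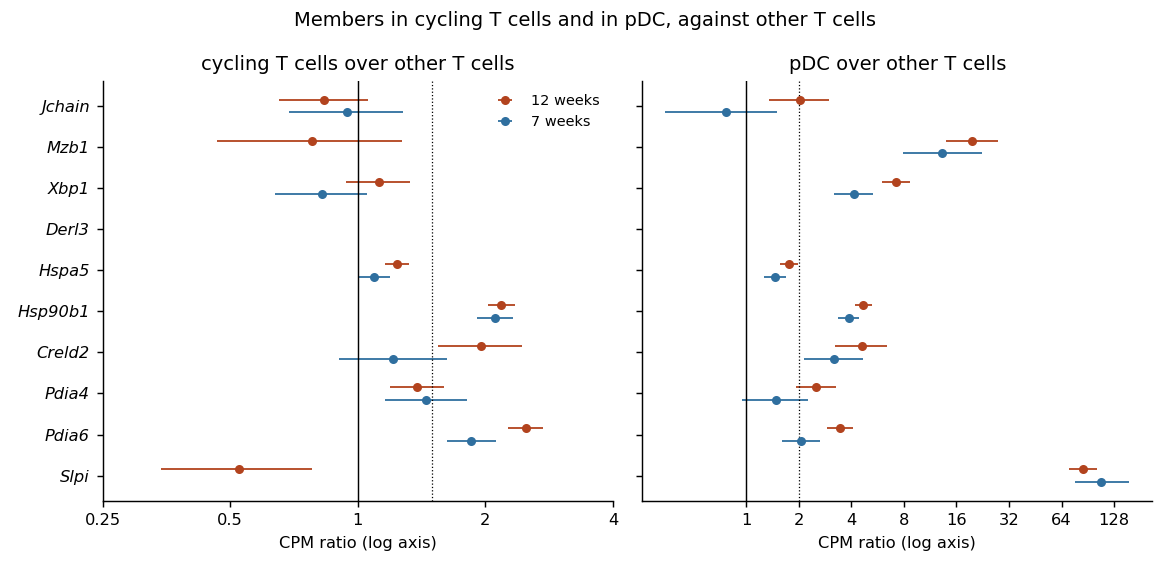
CPM of cycling T cells over other T cells (left) and of pDC over other T cells (right), on log axes, with exact 95% counting intervals, at 12 weeks (upper point of each pair) and 7 weeks (lower point). Dotted lines mark the limits of 1.5 and 2, and members with fewer than 50 UMIs in a comparison have no point. Hsp90b1 and Pdia6 stand right of the limit in cycling T cells at both ages, and Slpi and Mzb1 stand furthest right in pDC.

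Between the ages, few members differed by 1.5-fold in T cells. In cycling T cells 0 of 7 members reached 1.5-fold in either direction, beside 5.51% of genes higher at 12 weeks, with ratios between 0.859 (Jchain) and 1.24 (Pdia6). In other T cells 1 of 9 did, beside 3.42% of genes, and this was Slpi, at 18.3 CPM at 12 weeks against 9.21 CPM at 7 weeks, which is a ratio of 1.98 (1.37 to 2.94), with acinar transcripts at 580 and 26.6 CPM beside it. Their part in the Slpi value was not tested. Creld2 was lower at 12 weeks, at 23.5 and 34.9 CPM, a ratio of 0.673 (0.536 to 0.846). The order of the classes in Hsp90b1 was the same at both ages, secreting cells first, then pDC, cycling T, B and other T cells. In Hspa5, cycling T and B cells were near each other, at 488 and 474 CPM at 12 weeks and 444 and 411 CPM at 7 weeks.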

How the data were processed

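The authors deposited whole-number UMI counts per gene and barcode, not normalized, for 1 library of each age. Per the submitters' processing notes, Cell Ranger 1.3.1 and mm10 were used. Which annotation was counted is not given in the sources used here. Barcodes with at least 200 genes and at most 10% mitochondrial UMIs were kept, and 8 barcodes of the 12 week and 4 of the 7 week library fell out. Doublet scoring followed the Scrublet method (2 simulated doublets per barcode, 30 components, 2000 variable genes). The automatic threshold removed 33 barcodes at 12 weeks. At 7 weeks it called 0.271%, under the lower limit of 0.5%, and the 10 highest scores were removed by the loading rate, so the filter was not set alike. B cells held no Cd3e UMI, T cells fewer than 2 of Cd79a, and pDC took precedence, then secreting cells. Secreting cells were not filtered on Cd3e, which had a UMI in 10 of 32 at 12 weeks and 4 of 7 at 7 weeks.

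Counts were summed per class and library. Sums carry exact Poisson intervals, ratios exact conditional binomial intervals, shares Clopper-Pearson intervals, all at 95% and for counting error only. PCR duplicates are merged by UMI. A gene entered a comparison with at least 50 UMIs over both classes, and was counted as higher at a ratio of 1.5 between ages or cycling states and of 2 between other classes. A class with 0 counts was given a floor of 3 counts in these counts of genes. Detection was compared after thinning each cell to 2500 UMIs (seed 1), with no cell shallower. Intervals and the ratio rule were tested on simulated data. The 10 members, the 7 pathway lists and the 11 marker lists were chosen with earlier results of these data known. Named genes are the members, from each list the 3 with most UMIs in secreting cells and that of the largest age ratio in B-lineage cells, and the 5 closest in profile (log2 of CPM plus 10). Gene positions are from GENCODE (GRCm38) and promoters from RefSeq. Python 3.11.15, numpy 2.4.6, scipy 1.17.1, pandas 2.3.3, scikit-learn 1.9.0, scikit-image 0.26.0 and matplotlib 3.10.9 were used. Alternatives changed the filters, the class limits, the UMI minimum, the weighting of cells and the cells included. A further 3 were chosen after seeing the data, a secreting limit of 100 Jchain UMIs, secreting cells with at most 1 Cd3e UMI and pDC with none.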

Additional observations from a re-analysis of the deposited data

How the results depend on the processing

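Of 122 counts, shares and differences recomputed under the alternatives, 107 stayed within 1.5 times the value reported or within its counting interval, as did 767 of 821 values of single members on the log2 scale. No paired analysis was possible because each age has 1 library. Members at least 1.5-fold higher at 12 weeks in B cells, 2 as reported, were 1 without the doublet filter, 1 at 4 Cd79a UMIs and 0 with mixed cells kept. In pDC, 5 as reported, they were 1 at 6 Siglech UMIs and 1 with no Cd3e UMI. In all B-lineage cells, 1 as reported, they were 5 as a mean of per-cell CPM, 2 without the top cell of each gene, 4 without cycling cells and 3 without secreting cells holding over 1 Cd3e UMI. In cycling T cells, 0 as reported, the count was 1 at a minimum of 20 UMIs. In cycling over other B cells at 7 weeks it was 2 with mixed cells kept and 2 at 20 UMIs, in place of 0. The Jchain share of the top cells was 46.6% at 12 weeks and 99.1% at 7 weeks for the top 5 cells, and 73.7% at 7 weeks without the 3 secreting cells holding over 1 Cd3e UMI. The log2 ratio turned positive for Xbp1 in B-lineage cells at 0.22 (per-cell CPM), 0.19 (no cycling cells) and 0.03 (at most 1 Cd3e UMI), for Creld2 in cycling B cells at 12 weeks at 0.18 (mixed cells kept) and 0.17 (per-cell CPM), and for Hsp90b1 there at 7 weeks at 0.71 (mixed cells kept). Where fewer cells or genes entered, that is the construction of the alternative, and the cause was otherwise not tested. The 7 secreting cells at 7 weeks limit every statement on age in that class.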
